A study of Rattus norvegicus with 12 samples.

Results

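The genes described here are those of the machinery that starts protein synthesis, the eukaryotic translation initiation factors, together with the eIF2 kinases and the eIF4E-binding proteins that control it. A probe was taken when its gene name in the array file, or the current symbol behind its accession, began with Eif and a family digit. This gave 47 genes on 81 probes, out of 35529 genes or unmatched transcripts on the array. Of these genes, 42 were found by name and 5 by accession alone (Eif1ad, Eif2ak2, Eif2d, Eif4h and Eif6). Ago1, Ago2, Ago3 and Ago4 came in under older names of the Eif2c type and are Argonaute genes of RNA silencing, not initiation factors. They are counted among the 47 and described apart. Of the 47 genes, 45 were tested, and all 45 were well above background on each of the 12 arrays. Ago4 and Eif5a2 were not well above background on any array and were not tested.

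The samples were kidney cortex of male Fisher 344 rats aged 8 weeks, taken 24 h after a single intravenous injection. Control animals received the saline vehicle (0 mg/kg), and the other groups received cephaloridine, a cephalosporin antibiotic known to injure the proximal tubule, at 150, 300 or 600 mg/kg. Each group had 3 animals with 1 single-colour Agilent array each. Levels below are the processed signal divided by the 75th percentile of its array, so that 1 is the signal of that percentile. Changes are log2 differences between group means with the standard error of limma, an array model that shares information on spread between genes. A gene was called higher or lower at a Benjamini-Hochberg adjusted p under 0.05 over all 20760 tested genes.

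Initiation factors bring the small ribosomal subunit, the initiator tRNA and the capped mRNA together and release the subunit for joining once the start codon is found. eIF2 carries the initiator tRNA as a complex with GTP, and eIF2B reloads it with GTP after each round. 4 stress-sensing kinases phosphorylate the alpha subunit of eIF2 and so block eIF2B, while eIF4E-binding proteins hold the cap-binding factor eIF4E away from the scaffold eIF4G until the kinase mTORC1 phosphorylates them. In the kidney, as in other tissues, both controls are known to lower protein synthesis under stress. Both act largely through phosphorylation, which an mRNA array does not read.

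The arrays had 59.2 to 63.2% of probes well above background and no saturated probe, and arrays of 1 group correlated at 0.9940 to 0.9975 over the tested genes. The 12 arrays lay on 4 slides, and no control array shared a slide with a 600 mg/kg array. Slide 1 held the 3 controls and low-dose animal 1, and slide 4 held middle-dose animal 3 and the 3 high-dose animals. Slides 2 and 3 each held 1 low-dose and 1 middle-dose animal. The labelled tissue was borne out by its markers: the 8 proximal tubule genes (Lrp2, Cubn, Slc34a1 and others) were measured on all groups, with a summed level of 581 to 604 in controls. That sum was 397 to 423 at 600 mg/kg, where 8 of 8 were called lower. Cycling-cell markers summed to 11.8 to 13.5 in controls, 9.31 to 9.97 at 150 mg/kg, 9.13 to 10.8 at 300 mg/kg (2 of 8 called higher and 4 lower) and 19.1 to 22.1 at 600 mg/kg (5 of 8 called higher). Macrophage markers summed to 21.7 to 26.4 in controls and 28.6 to 31.1 at 600 mg/kg (4 of 7 tested called higher, with Cd163 not well above background on any array). Endothelial markers summed to 53.0 to 56.0 in controls and 42.1 to 44.5 at 600 mg/kg (3 of 4 called lower). In a fit with slide as a block, 2 of 8 proximal tubule markers and 0 of 4 endothelial markers were called lower at 600 mg/kg, and 3 of 8 cycling and 1 of 7 macrophage markers higher. These lists differed between control and 600 mg/kg as the genes below did, and their part in the results was not tested. In a piece of tissue, a change in the number of cells of a type and a change in RNA per cell cannot be told apart.

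At 600 mg/kg, most initiation factor mRNAs were slightly higher than in controls. Of the 45 tested genes, 21 were called higher, against 18.0% of all tested genes. Another 3 (Eif4ebp2, Eif4a2 and Eif4g3) were called lower, against 16.8% of all tested genes. The median change was 0.107, beside -0.002 over all tested genes, and 32 of 45 changes were above 0. In 29 genes every high-dose array lay above every control, and in 7 every high-dose array lay below, where 28.5% and 27.6% of all tested genes did so. The changes were small: no member reached a 2-fold change, and the called members had a median size of 0.213 against 0.333 over all called genes. Standard errors were small as well, with a median of 0.050 over the 45 tested members against 0.076 over all tested genes. The 36 tested genes grouped as initiation factors, without kinases, binding proteins and Argonautes, had 19 called higher and 2 lower, with a median of 0.129.

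The count of calls depended on single control and high-dose animals and on how slide was treated. Without high-dose animal 2 or any 1 low-dose animal 19 members were called higher, and without a middle-dose animal 21 to 23. Without control 2, high-dose animal 1 or high-dose animal 3, 13, 12 and 13 members were called higher, and without control 1, control 3 or high-dose animal 1, 1 was called lower. Of the 24 called members, 12 were called in each of the 12 fits that left out 1 array: Eif1ad, Eif1b, Eif2s1, Eif2s2, Eif2s3, Eif3c, Eif3f, Eif3l, Eif4e2, Eif4ebp1, Eif4ebp2 and Eif6. With slide as a block, 0 members were called higher and 0 lower by limma, where 1.83% and 0.983% of all tested genes were. At an unadjusted p under 0.05 by limma that fit had 7 members higher and 1 lower. The share of all tested genes under this unadjusted limit was not counted, here or below, so these counts have no background beside them. The fit with slide as a block reaches the high dose from the controls only through the low and middle doses. Its median standard error over all genes was 0.154. Its median change of the 45 genes was 0.116, beside -0.010 over all tested genes, and 35 of 45 changes were above 0.

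**Figure D1:**
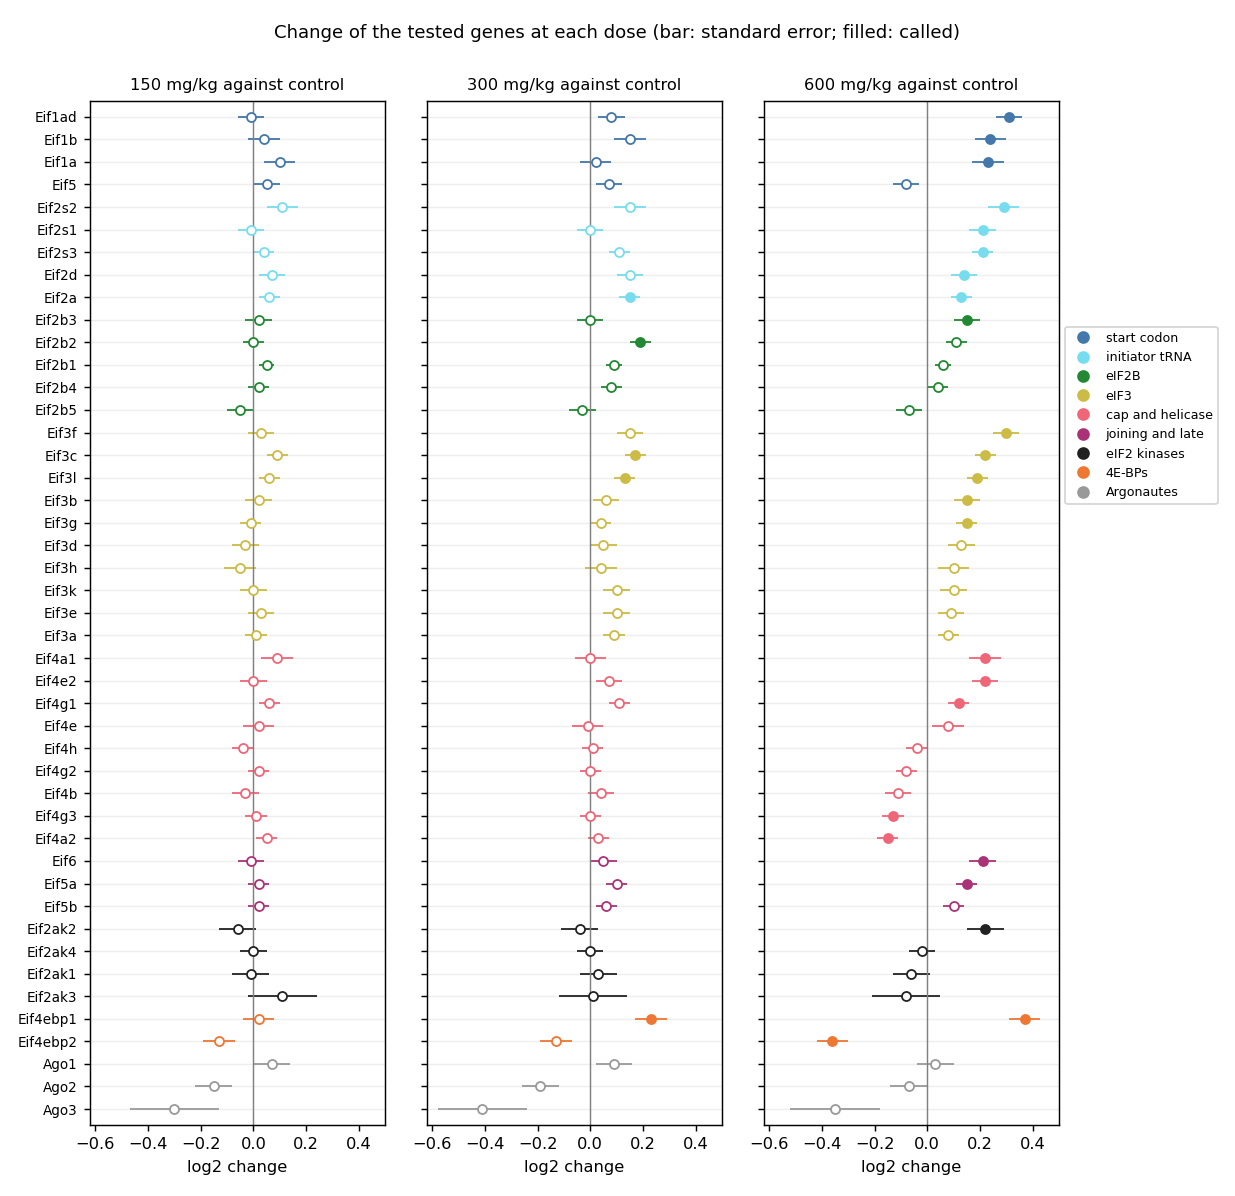
Log2 change of each of the 45 tested genes at 150, 300 and 600 mg/kg against the same 3 controls, coloured by role, with standard errors from limma as bars and filled points for genes called at an adjusted p under 0.05. No point is filled at 150 mg/kg, 5 are filled at 300 mg/kg and 24 at 600 mg/kg, and no change reaches 0.5 in size.

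At the lower doses little was called. At 150 mg/kg, 0 members were called higher and 0 lower, where 0.0578% and 0.0434% of all tested genes were. At an unadjusted p under 0.05 by limma 0 were higher and 1, an Argonaute gene, was lower. At 300 mg/kg, 5 members were called higher (Eif4ebp1, Eif2b2, Eif3c, Eif2a and Eif3l) against 8.21% of all tested genes, and 0 were called lower against 4.81%. At an unadjusted p under 0.05 by limma 14 members were higher and 2, both Argonaute genes, were lower. The median change at 300 mg/kg was 0.058, beside 0.024 over all tested genes. Of the 5, none was called in all 12 fits that left out 1 array: the count was 0 without control 1 or without control 2, 1 without middle-dose animal 2 or 3, and 3 without control 3, low-dose animal 1 or any of the 3 high-dose animals. All dose comparisons against vehicle share the same 3 controls, so their values are given side by side and not as independent results. Between 150 and 300 mg/kg, 0 members were called in either direction, where 0.193% of all tested genes were higher and 0.0385% lower (2 members higher and 0 lower at an unadjusted p under 0.05).

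Between 300 and 600 mg/kg, 8 members were called higher (9.61% of all tested genes were) and 2 lower (12.9% were). The difference between these doses does not use the controls, but the shared estimate of spread does. The higher ones were Eif1a, Eif1ad, Eif2ak2, Eif2b3, Eif2s1, Eif4a1, Eif4e2 and Eif6, and the lower ones were Eif4ebp2 and Eif4a2. In fits that left out 1 array, all members called were counted, including any outside these 10. The count was 6 without control 1, low-dose animal 1 or high-dose animal 2. It was 4 without high-dose animal 1, 2 without high-dose animal 3, and 7 or 8 without any other array. Of the 10 genes, 4 lost their call without middle-dose animal 1 (Eif2ak2, Eif2b3, Eif4e2 and Eif6), and these and Eif1a did without middle-dose animal 3. Middle-dose animal 3 shared slide 4 with the high-dose animals, and with slide as a block 1 member, Eif2s1, was called higher and 0 lower, where 4.96% and 4.79% of all tested genes were (9 and 2 members at an unadjusted p under 0.05).

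The 2 measured eIF4E-binding proteins moved in opposite directions and gave the largest called rise and the largest called fall among the members. Eif4ebp1 encodes 4E-BP1, which competes with eIF4G for eIF4E. Its level was 2.91, 3.08 and 3.23 in the controls, 3.07, 3.04 and 3.25 at 150 mg/kg, 3.47, 3.83 and 3.52 at 300 mg/kg, and 4.13, 3.84 and 3.95 at 600 mg/kg. The low dose overlapped the controls, and every middle-dose and high-dose array lay above every control. The change was 0.23 ± 0.06 (SE, n = 3 animals a group) at 300 mg/kg (adjusted p 0.027) and 0.37 ± 0.06 at 600 mg/kg (adjusted p 0.000946, a rise of 29.4%). The call at 300 mg/kg was lost without control 1, control 2 or middle-dose animal 2 (adjusted p up to 0.103). A second Eif4ebp1 probe rose by 0.44 ± 0.06 at 600 mg/kg. With slide as a block the change at 600 mg/kg was 0.39 ± 0.12 (adjusted p 0.134).

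Eif4ebp2, for the paralog 4E-BP2, had levels of 7.85, 7.13 and 6.85 in the controls, 6.69, 6.56 and 6.72 at 150 mg/kg, 6.47, 7.13 and 6.33 at 300 mg/kg, and 5.81, 5.54 and 5.64 at 600 mg/kg. The high-dose arrays were the lowest of all 12, and the middle dose overlapped the controls. The change was -0.36 ± 0.06 at 600 mg/kg (adjusted p 0.0016, fell by 22.1%) and -0.13 ± 0.06 at 300 mg/kg (adjusted p 0.172). Its other probe changed by -0.22 ± 0.09 and was not called (adjusted p 0.0657 over probes). In the fit blocked by slide, Eif4ebp2 changed by -0.25 ± 0.14 (adjusted p 0.347).

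The ratio of the Eif4ebp1 to the Eif4ebp2 signal within an array does not depend on the scaling between arrays. This ratio was chosen after the values were seen and is a description without a test. Relative to the control mean, its log2 was -0.19, 0.03 and 0.16 in the controls, 0.12, 0.13 and 0.19 at 150 mg/kg, 0.34, 0.35 and 0.40 at 300 mg/kg, and 0.75, 0.71 and 0.73 at 600 mg/kg. The low dose overlapped the controls, and the middle and high doses lay above them and apart from each other. The mean at 600 mg/kg was 0.73, a ratio 66.0% above that of the controls, with an SD of 0.02 among the high-dose animals and 0.17 among the controls. Within slides the ratio was higher at the higher dose on all 4: by 0.12 on slide 1 (low dose over controls), 0.21 on slide 2 and 0.15 on slide 3 (middle over low dose), and 0.33 on slide 4 (high over middle dose).

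**Figure D2:**
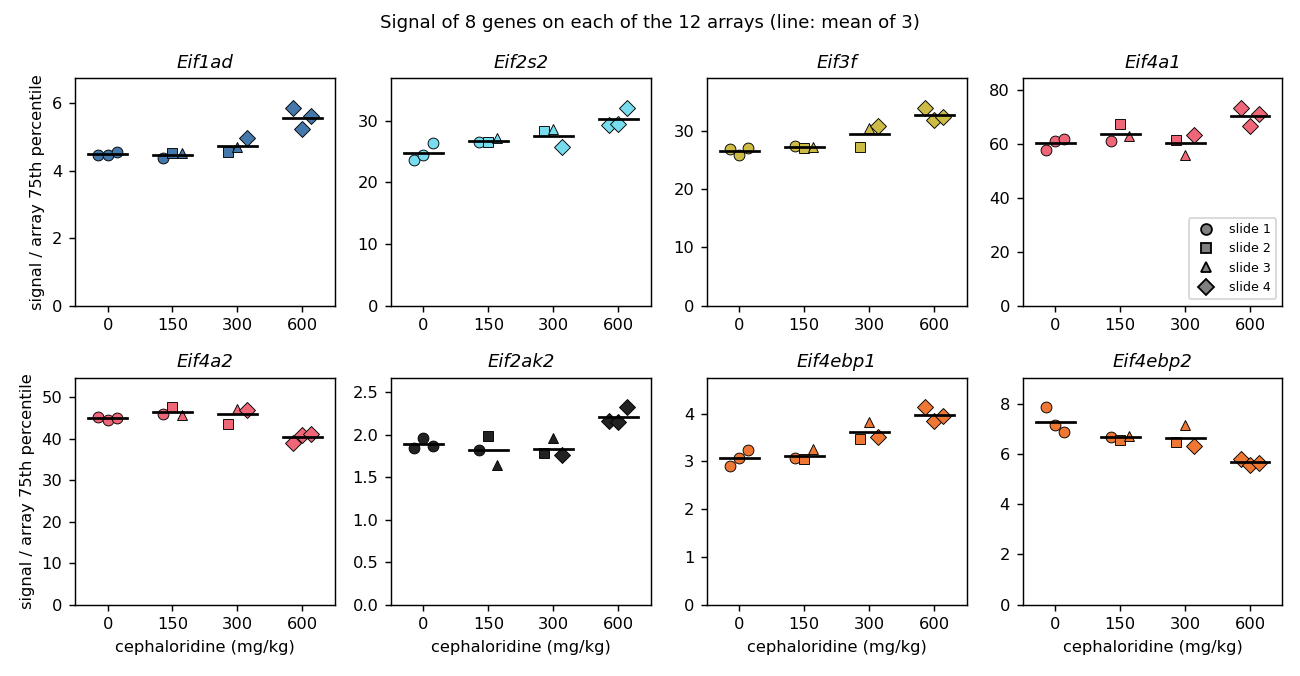
Signal of 8 genes on each of the 12 arrays, as a multiple of the 75th percentile of the array, against the dose of cephaloridine; each vertical axis starts at 0, marker shapes give the slide and lines the mean of 3 animals. Eif4ebp1 sits at 3.84 to 4.13 at 600 mg/kg against 2.91 to 3.23 in controls, while Eif4ebp2 sits at 5.54 to 5.81 against 6.85 to 7.85.

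Of the 4 eIF2 kinases 1, Eif2ak2, was called higher at 600 mg/kg, a share near the 18.0% of all tested genes. The other 3 were not called. Eif2ak2 encodes PKR, the interferon-induced kinase that responds to double-stranded RNA. Its level was 1.84, 1.96 and 1.86 in the controls, 1.82, 1.98 and 1.64 at 150 mg/kg, 1.78, 1.96 and 1.76 at 300 mg/kg, and 2.16, 2.15 and 2.32 at 600 mg/kg. The lower doses overlapped the controls, and the 3 high-dose arrays lay above all others. The change was 0.22 ± 0.07 (adjusted p 0.0326) and 0.27 ± 0.07 from 300 to 600 mg/kg (adjusted p 0.0224). The call against control was lost without control 1, control 3 or any high-dose animal (adjusted p up to 0.113), and that against 300 mg/kg without middle-dose animal 1 or 3 or high-dose animal 3 (up to 0.0816). The other Eif2ak2 probe changed by -0.09 ± 0.15 (adjusted p 0.68 over probes).

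Eif2ak1 encodes HRI, a kinase regulated by heme. It ranged from 10.9 to 11.4 in controls and from 10.3 to 11.0 at 600 mg/kg, a change of -0.06 ± 0.07 (adjusted p 0.497). Eif2ak3, for PERK, which responds to misfolded protein in the endoplasmic reticulum, ranged from 0.609 to 0.763 in controls and from 0.567 to 0.712 at 600 mg/kg (-0.08 ± 0.13, adjusted p 0.645). Eif2ak4 encodes GCN2, which senses uncharged tRNA. It ranged from 1.89 to 1.99 and from 1.85 to 1.95 (-0.02 ± 0.05, adjusted p 0.82). For these 3 kinases the groups overlapped, and at 150 and 300 mg/kg no kinase was called.

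All 5 genes that deliver the initiator tRNA were called higher at 600 mg/kg, where 18.0% of all tested genes were, with a median change of 0.212. They are Eif2s1, Eif2s2 and Eif2s3, for the alpha, beta and gamma subunits of eIF2, and Eif2a and Eif2d, for proteins that can bring tRNA to the ribosome without eIF2. Eif2s1, whose product is the target of the kinases, had levels of 2.09, 1.99 and 2.11 in the controls, 2.10, 2.01 and 2.03 at 150 mg/kg, 2.11, 2.17 and 1.93 at 300 mg/kg, and 2.32, 2.39 and 2.46 at 600 mg/kg. The 3 high-dose arrays lay above all 9 others, which overlapped. The change was 0.21 ± 0.05 (adjusted p 0.00988). Blocking by slide gave 0.42 ± 0.10 (adjusted p 0.0767). From 300 to 600 mg/kg it was 0.21 ± 0.05 without the block (adjusted p 0.0158) and 0.31 ± 0.06 with it (adjusted p 0.0267), the single member called in the blocked fit. Without high-dose animal 3 the call from 300 to 600 mg/kg was lost (adjusted p 0.0607).

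Eif2s2 had levels of 23.6, 24.5 and 26.4 in the controls, 26.5, 26.5 and 27.2 at 150 mg/kg, 28.3, 28.7 and 25.7 at 300 mg/kg, and 29.4, 29.5 and 32.1 at 600 mg/kg. Its high-dose arrays lay above all others, and the middle dose overlapped the controls. The change at 600 mg/kg was 0.29 ± 0.06 (adjusted p 0.00444, a rise of 22.3%). It has 3 probes: another changed by 0.29 ± 0.13 (adjusted p 0.114 over probes) and the last by -0.16 ± 0.12 (adjusted p 0.347), so its call rests on the brightest. Eif2s3 had levels of 2.63, 2.64 and 2.86 in the controls and 3.12, 3.13 and 3.16 at 600 mg/kg, without overlap. It rose by 0.21 ± 0.04 (adjusted p 0.0039), and its other probes each rose by 0.15 ± 0.05. Eif2d changed by 0.14 ± 0.05 (adjusted p 0.042) and Eif2a by 0.13 ± 0.04 (adjusted p 0.0368). Eif2a lost its call without any 1 of the controls or of the high-dose animals (up to 0.127), and Eif2d without any 1 control, any 1 low-dose animal or high-dose animal 1 or 3 (up to 0.132).

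Of the 5 subunit genes of the exchange factor eIF2B 1, Eif2b3 (gamma), was called higher at 600 mg/kg, a share near the 18.0% of all tested genes, and the median was 0.063. Eif2b3 had levels of 1.20, 1.16 and 1.19 in the controls and 1.27, 1.30 and 1.36 at 600 mg/kg, which did not overlap. The change was 0.15 ± 0.05 (adjusted p 0.024), lost without any 1 control or high-dose animal 3 (up to 0.0954). Its other probe rose by 0.28 ± 0.04. Eif2b2 (beta) was highest at the middle dose. Its level was 7.37, 7.27 and 7.51 in the controls, 8.01, 8.58 and 8.70 at 300 mg/kg, and 8.20, 7.71 and 7.96 at 600 mg/kg, and both dose groups lay above the controls. It rose by 0.19 ± 0.04 at 300 mg/kg (adjusted p 0.0226) and was 0.11 ± 0.04 above the controls at 600 mg/kg without passing the test (adjusted p 0.083). The call at 300 mg/kg was lost without control 1, control 2 or middle-dose animal 3 (up to 0.085). Eif2b5 (epsilon), the catalytic subunit, changed by -0.07 ± 0.05 at 600 mg/kg (adjusted p 0.307).

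eIF3, the largest initiation factor, is a scaffold on the small subunit. 5 of its 10 measured subunit genes were called higher at 600 mg/kg (Eif3b, Eif3c, Eif3f, Eif3g and Eif3l) and 0 lower. Of all tested genes, 18.0% were called higher and 16.8% lower. At the brightest probe of each gene the 10 differences ran from 0.08 to 0.30 with a median of 0.142. In all 10 the high-dose arrays lay above all controls, where 28.5% of all tested genes did so. With slide as a block 9 of 10 differences were above 0. Eif3f had levels of 27.0, 25.9 and 27.1 in the controls, 27.5, 27.2 and 27.3 at 150 mg/kg, 27.3, 30.5 and 30.9 at 300 mg/kg, and 34.0, 32.0 and 32.5 at 600 mg/kg. The middle-dose and high-dose arrays did not overlap, and the high dose lay above all other groups. The change at 600 mg/kg was 0.30 ± 0.05 (adjusted p 0.0019, a rise of 23.0%) and at 300 mg/kg 0.15 ± 0.05 (adjusted p 0.0915).

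Eif3c and Eif3l were called at both upper doses. Eif3c had levels of 44.0, 43.4 and 45.5 in the controls, 47.0, 46.6 and 47.4 at 150 mg/kg, 48.4, 51.7 and 50.0 at 300 mg/kg, and 51.7, 50.0 and 53.7 at 600 mg/kg. All treated arrays lay above all controls, and the upper doses overlapped each other. It rose by 0.17 ± 0.04 at 300 mg/kg (adjusted p 0.0276) and 0.22 ± 0.04 at 600 mg/kg (adjusted p 0.0031). The call at 300 mg/kg was lost without control 1, control 2, middle-dose animal 2 or 3 (up to 0.102). Eif3l rose by 0.13 ± 0.04 at 300 mg/kg (adjusted p 0.047), a call lost in each of the 12 fits that left out 1 array (up to 0.165), and by 0.19 ± 0.04 at 600 mg/kg (adjusted p 0.00392). Its second probe was not called at 600 mg/kg. Eif3b and Eif3g, both 0.15 at 600 mg/kg, lost their calls in 4 of these fits each.

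Eif3a, for the large core subunit, gave different answers by probe. Its brightest probe changed by 0.08 ± 0.04 at 600 mg/kg (adjusted p 0.139), while its other probes fell by 0.40 (SE 0.08, adjusted p 0.00523 over probes) and by 0.60 (SE 0.17, adjusted p 0.0199). The mean of the 3 probes changed by -0.30 (adjusted p 0.0116). Why the probes differ was not tested.

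Among the genes grouped as start codon and scanning factors, 3 of 4 were called higher at 600 mg/kg, where 18.0% of all tested genes were. The median of the 4 was 0.236. Eif1ad, for a protein with an eIF1A-like domain, was grouped here by its name, and a role in scanning was not tested. Its levels were 4.46, 4.47 and 4.55 in the controls and 4.38, 4.52 and 4.52 at 150 mg/kg. They were 4.57, 4.71 and 4.96 at 300 mg/kg, and 5.86, 5.24 and 5.61 at 600 mg/kg. The high-dose arrays lay above all others. The change was 0.31 ± 0.05 (adjusted p 0.0013, a rise of 23.8%), and from 300 to 600 mg/kg it was 0.23 ± 0.05 (adjusted p 0.00899), the single call of that step that was kept in all 12 fits with 1 array left out. Eif1b, a close relative of the start-codon factor eIF1, had levels of 3.69, 3.55 and 3.84 in the controls and 4.61, 4.18 and 4.32 at 600 mg/kg (0.24 ± 0.06, adjusted p 0.00776). Eif1a, for a scanning factor, had 2.42, 2.28 and 2.53 against 2.89, 2.78 and 2.81 (0.23 ± 0.06, adjusted p 0.0181), a call that did not hold when control 2 or high-dose animal 1 was left out. Neither overlapped the controls at 600 mg/kg. Eif5, the protein that triggers GTP hydrolysis by eIF2, changed by -0.08 ± 0.05 (adjusted p 0.246).

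Of 9 cap-binding and helicase genes, 3 were called higher and 2 lower, where 18.0% and 16.8% of all tested genes were. Their median was -0.042. The helicase paralogs Eif4a1 and Eif4a2, which unwind the 5′ end of mRNA, went opposite ways. Eif4a1 had levels of 57.7, 61.0 and 61.6 in the controls, 61.0, 67.2 and 63.0 at 150 mg/kg, 61.4, 55.7 and 63.3 at 300 mg/kg, and 73.2, 66.5 and 71.1 at 600 mg/kg. High-dose animal 2 lay just below low-dose animal 2, and the high-dose arrays lay above all controls. The change was 0.22 ± 0.06 (adjusted p 0.0184), and each of its 5 probes was called higher, by 0.22 to 0.39. The call of the brightest was lost without control 1 or high-dose animal 1 or 3 (up to 0.071). In the fit blocked by slide its change was 0.02 ± 0.12 (adjusted p 0.95).

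Eif4a2 had levels of 45.3, 44.5 and 45.0 in the controls, 46.1, 47.6 and 45.8 at 150 mg/kg, 43.6, 47.3 and 46.9 at 300 mg/kg, and 38.9, 40.9 and 41.2 at 600 mg/kg. The high-dose arrays lay below all others. The change was -0.15 ± 0.04 (adjusted p 0.0213), and -0.19 ± 0.04 from 300 to 600 mg/kg (adjusted p 0.0139). The first call did not hold when control 1, control 3 or high-dose animal 1 was left out, and the second when high-dose animal 1 was. The log2 ratio of Eif4a1 to Eif4a2, also chosen after the values were seen, was 0.49, 0.28 and 0.37 above the control mean in the high-dose animals and between -0.18 and 0.08 in the 9 other arrays. Within slide 4 it was 0.37 higher in the high-dose animals than in middle-dose animal 3, and on slide 3 it was -0.22 for the middle against the low dose.

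Of the eIF4G scaffolds, which bridge the cap complex to eIF3, Eif4g1 changed by 0.12 ± 0.04 at its brightest probe (adjusted p 0.0473), but a second of its 3 probes fell by 0.30 (SE 0.08, adjusted p 0.0128 over probes). Of the 20 tested members with several probes it alone had opposite calls, and the mean of its probes changed by -0.05. Eif4g3 had levels of 6.64, 6.69 and 6.70 in the controls and 5.98, 6.07 and 6.27 at 600 mg/kg, without overlap (-0.13 ± 0.04, adjusted p 0.0434). Eif4g1 lost its call in 8 of the 12 fits with 1 array left out (up to 0.145) and Eif4g3 in 7 (up to 0.13), each of them without any 1 control. Eif4g2, for a related protein that does not bind eIF4E, was not called (-0.08 ± 0.04, adjusted p 0.135). The cap-binding protein gene Eif4e itself was not called (8.17 to 8.84 in controls and 8.54 to 9.45 at 600 mg/kg, 0.08 ± 0.06, adjusted p 0.346). Its relative Eif4e2, which binds the cap without recruiting eIF4G, had levels of 4.49, 4.33 and 4.71 against 5.47, 5.02 and 5.30 and rose by 0.22 ± 0.05 (adjusted p 0.00592). The helicase cofactors were not called: Eif4b changed by -0.11 ± 0.05 (adjusted p 0.097) and Eif4h by -0.04 ± 0.04 (adjusted p 0.482). Another Eif4b probe, spotted 10 times on each array, changed by 0.08 ± 0.05 and was not called (adjusted p 0.217 over probes). Its spots within an array differed by a coefficient of variation of 1.69 to 6.05%.

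The joining and late factors had 2 of 3 called higher, where 18.0% of all tested genes were, with a median of 0.152. Eif6, whose product keeps free subunits apart, had levels of 18.1, 17.5 and 18.0 in the controls, 17.2, 19.5 and 18.8 at 300 mg/kg, and 21.5, 20.0 and 20.7 at 600 mg/kg. The high-dose arrays lay above the others (0.21 ± 0.05, adjusted p 0.00962). Eif5a, for the hypusine-bearing factor now known mainly for elongation, had 37.6, 36.9 and 36.5 in the controls and 42.5, 40.7 and 40.1 at 600 mg/kg (0.15 ± 0.04, adjusted p 0.0166). That call did not hold when control 2, control 3 or high-dose animal 1 was left out. Eif5b, the GTPase of subunit joining, was not called at its brightest probe (0.10 ± 0.04, adjusted p 0.074); of its other probes 1 was called higher. The 3 tested Argonaute genes had 0 called in either direction at any dose by limma (2 at 300 mg/kg, 1 at 150 mg/kg and 0 at 600 mg/kg at an unadjusted p under 0.05). Ago3, at 0.0554 to 0.0720 in controls and 0.0462 to 0.0602 at 600 mg/kg, changed by -0.35 ± 0.17 (adjusted p 0.146).

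**Figure D3:**
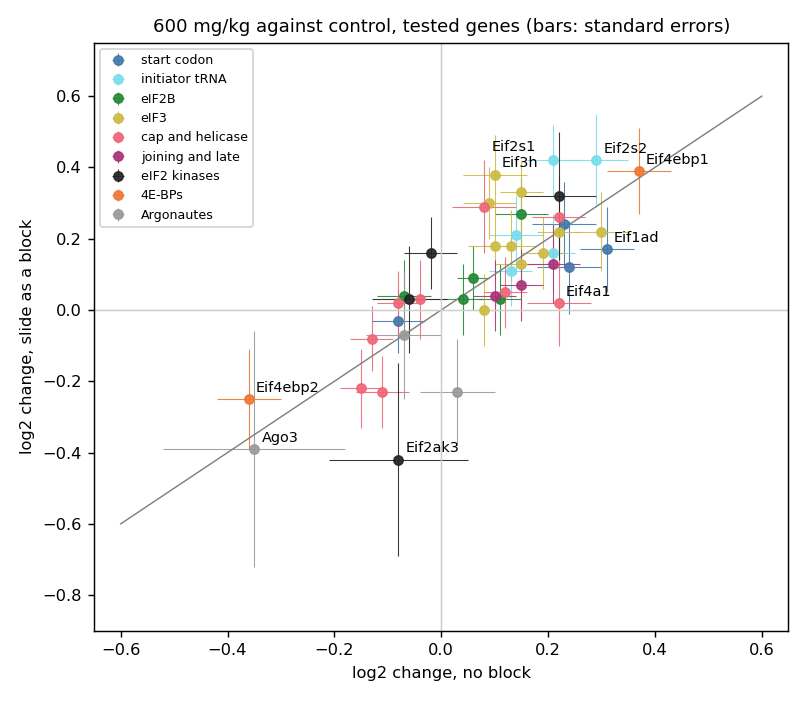
Log2 change at 600 mg/kg against control of the 45 tested genes without a block (horizontal axis) and with slide as a block (vertical axis), coloured by role, with standard errors as bars and the diagonal in grey. The blocked errors are wider, the median change is 0.107 without and 0.116 with the block, and Eif4a1 moves from 0.22 to 0.02.

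Several probes read the same gene for 20 tested members. Between probes the sign at 600 mg/kg differed in 8 of them (Eif2ak2, Eif2s2, Eif3a, Eif4b, Eif4g1, Eif4g2, Eif5 and Eif5b) and the call in 10. Over the 79 tested member probes, 32 were called higher, where 17.3% of all 24728 tested probes were, and 6 were called lower, where 16.8% were. Both Eif4ebp1 probes, both Eif4e2 probes, both Eif2b3 probes, all 3 Eif2s3 probes and all 5 Eif4a1 probes were called higher. The files used here give no probe position within a transcript, and probes that could also read a processed pseudogene were not singled out.

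**Figure D4:**
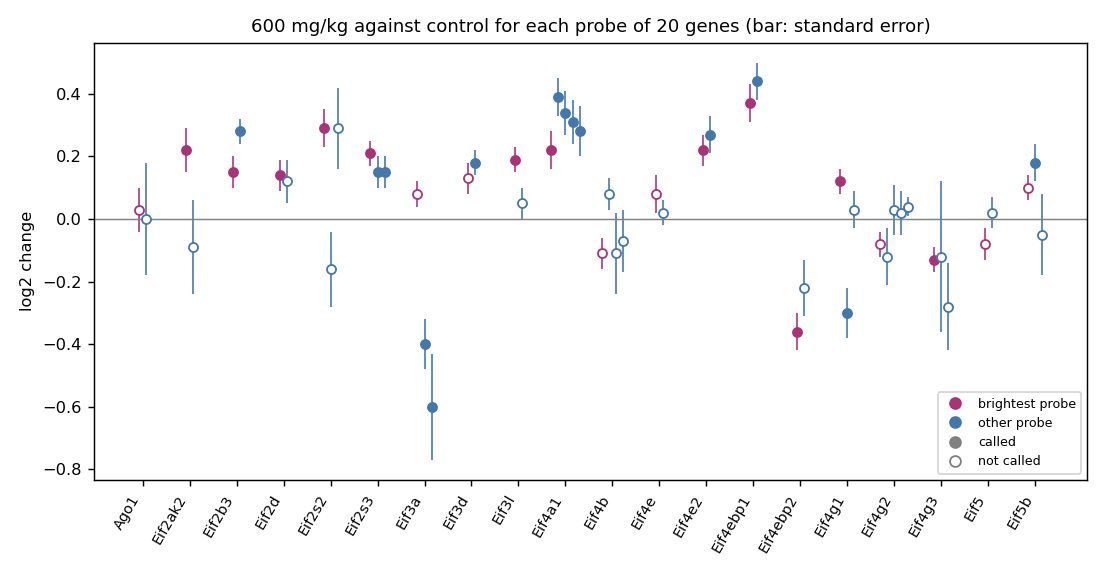
Log2 change at 600 mg/kg against control for every tested probe of the 20 members with several probes, the brightest probe in purple and the others in blue, with standard errors as bars and filled points for called probes. The Eif4a1 probes lie together between 0.22 and 0.39, while the Eif3a probes run from -0.60 to 0.08 and the Eif4g1 probes from -0.30 to 0.12.

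The promoters of the members were searched in RefSeq sequence of build GRCr8 for motifs of factors known to act on translation genes. Of the 47 members, 42 had a promoter in the table. The E-box CACGTG is the preferred site of Myc and of related factors. It lay in the 250 bases before the start of 8 members (19.0%), against 5.59% of all 33469 promoters. These promoters were not limited to genes tested here or to 1 promoter a gene, while each member was given 1. The 2 shares are therefore of unlike sets. Both strands are covered, as the motif is its own reverse complement. The members are also richer in G and C, with a median of 59.8% against 51.2%, and this was not taken into account. By call at 600 mg/kg, 5 of 20 members called higher and 2 of 17 not called held it. In Eif1b, Eif3b, Eif3f and Eif4g1 the first base of the E-box lay 54, 57, 59 and 54 bases before the start. In the other members it lay 80 and 237 bases before the start of Eif4e, 168 before that of Eif4h, 206 before that of Eif5a, and 171 and 196 before that of Eif5a2. The composite CARE motif TGATGNAA, a site of ATF4-type factors searched on both strands, was in Eif2s2 and Eif3g. That is 4.76% of the 42 members, a share near the 3.40% of all promoters. The CRE TGACGTCA was in none of the 42 (1.59% of all promoters). The 100 bases before the start of Eif1b, Eif3b, Eif3f and Eif4g1, chosen for an E-box within 60 bases of it, and of Eif2s2, the most raised eIF2 subunit gene, are shown in the direction of transcription, with the E-box or the CARE match in capitals. They lie at chr8:129081058-129081157 on the plus strand (Eif1b), chr12:19334769-19334868 on the minus strand (Eif3b), chr1:172368962-172369061 on the plus strand (Eif3f), chr11:93746368-93746467 on the minus strand (Eif4g1) and chr3:163855571-163855670 on the minus strand (Eif2s2).
Eif1b: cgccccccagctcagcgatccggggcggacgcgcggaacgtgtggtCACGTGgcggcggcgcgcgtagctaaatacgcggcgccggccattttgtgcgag
Eif3b: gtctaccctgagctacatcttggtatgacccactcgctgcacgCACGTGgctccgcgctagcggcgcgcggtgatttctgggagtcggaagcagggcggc
Eif3f: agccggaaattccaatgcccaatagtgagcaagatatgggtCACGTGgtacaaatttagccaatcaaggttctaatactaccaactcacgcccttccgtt
Eif4g1: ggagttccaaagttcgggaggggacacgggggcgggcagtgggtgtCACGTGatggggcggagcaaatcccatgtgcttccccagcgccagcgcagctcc
Eif2s2: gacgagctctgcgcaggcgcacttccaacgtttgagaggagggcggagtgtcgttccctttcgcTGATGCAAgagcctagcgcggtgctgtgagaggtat
A match describes letters in the window and was not tested for binding or for a part in the changes. The 4 genes with an E-box nearest the start did not behave alike: Eif3f rose by 0.30 and Eif1b by 0.24, Eif3b by 0.15, and the Eif4g1 probes disagreed.

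Genes that carry translation on after initiation were also called higher at 600 mg/kg. Of 11 tested genes listed for elongation and termination, 8 were called higher and 0 lower, with a median of 0.238. The list takes in Eef1e1 and Dhps, both called higher, and Eef2k, which are not themselves elongation or termination factors. The largest were Eef1g, a subunit of the eEF1 exchange factor (0.38 ± 0.06), and Etf1, for the release factor that reads stop codons (0.31 ± 0.04). Eef2, for the translocase, rose by 0.25 ± 0.04 (adjusted p 0.00134) from a mean level of 63.5 ± 2.47 (SD, n = 3) to 75.4 ± 0.804. Eef1a1, which brings aminoacyl-tRNA to the ribosome, was not called (0.08 ± 0.05, adjusted p 0.247), nor was the eEF2 kinase gene Eef2k (0.21 ± 0.09, adjusted p 0.0924). Of 18 cytosolic aminoacyl-tRNA synthetase genes 11 were called higher and 0 lower (median 0.217), led by Yars1 (0.44 ± 0.04) and Farsb (0.36 ± 0.04). Of 79 genes with a ribosomal protein symbol 56 were called higher and 1, Rps12l4, lower (median 0.254). The list was made by symbol and counts like-named copies, such as Rps12l4, Rps12l5 and Rps19l1, as separate genes. The largest rises were in Rps12l5 (0.59 ± 0.07) and Rps19 (0.50 ± 0.06). Rps12l4 was dim, with a mean level of 0.059 in controls and 0.0406 at 600 mg/kg. Over all tested genes 18.0% were called higher. With slide as a block, 0 of the 11 elongation and termination genes, 1 of the 18 synthetase genes and 2 of the 79 ribosomal protein genes were called higher, where 1.83% of all tested genes were, and their medians were 0.234, 0.254 and 0.303. The initiation factors had a median of 0.129, and differences between lists were not tested.

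**Figure D5:**
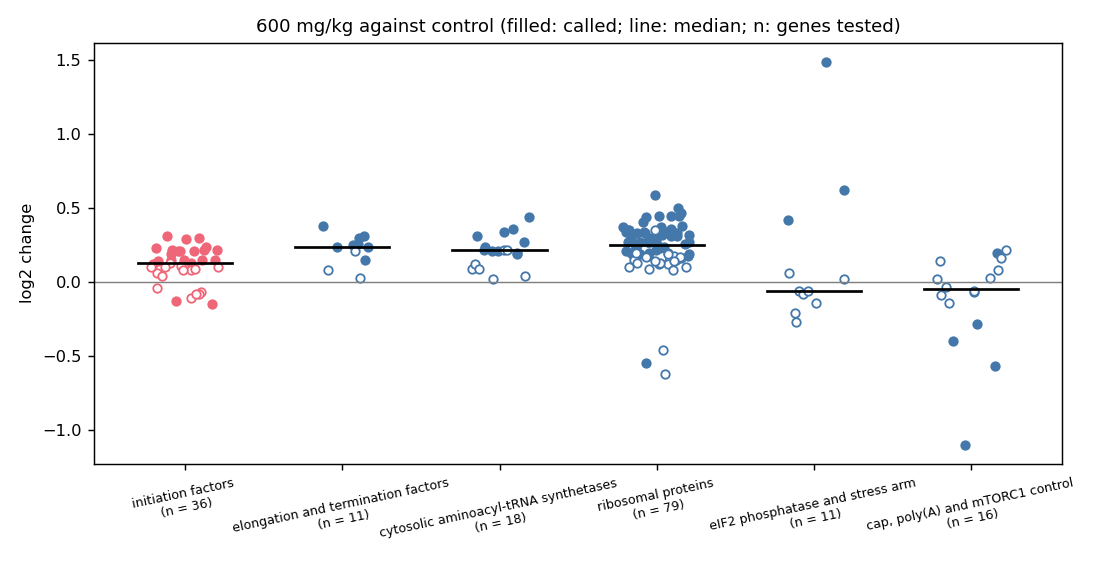
Log2 change at 600 mg/kg against control of the 36 tested initiation factor genes (red) and of the tested genes of 5 related lists (blue), each point a gene, filled where called, with a line at the median of the list. Medians are 0.129 for initiation factors, 0.238, 0.217 and 0.254 for elongation and termination factors, aminoacyl-tRNA synthetases and ribosomal proteins, and -0.056 and -0.043 for the stress arm and the cap, poly(A) and mTORC1 genes.

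The genes around the kinases and the binding proteins did not move as a group. In the eIF2 phosphatase and stress list, 3 of 11 were called higher and 0 lower, where 18.0% and 16.8% of all tested genes were. The list had a median of -0.056. Trib3, for a pseudokinase downstream of ATF4, rose most (1.49 ± 0.08, adjusted p 2.82e-06, from 0.244 ± 0.0103 to 0.687 ± 0.0571, mean and SD of 3). Its call held in the fit blocked by slide (1.40, adjusted p 0.0153). Ppp1r15a, for the stress-induced subunit of the eIF2 phosphatase, rose by 0.62 ± 0.17 (adjusted p 0.0177) but stood at -0.16 with slide as a block (adjusted p 0.561). Atf5 rose by 0.42 ± 0.07, while Atf4 itself (0.02 ± 0.06, adjusted p 0.857) and Ddit3 (-0.06 ± 0.08, adjusted p 0.641) were not called. Among 16 genes of cap, poly(A) and mTORC1 control, 1 was called higher and 4 lower (median -0.043), against the same shares of all tested genes. Ddit4, for the mTORC1 inhibitor REDD1, fell by 1.10 (SE 0.23, adjusted p 0.00534) from 2.85 ± 0.061 to 1.36 ± 0.358, and Sesn2, for another inhibitor of mTORC1, fell by 0.57 (SE 0.13). Deptor and Mtor were also called lower, and Pdcd4, for an inhibitor of the eIF4A helicase, was called higher (0.20 ± 0.07, adjusted p 0.0487). The slide block ended the calls of this list and those of Ppp1r15a and Atf5: Ddit4 stood at -2.05 (adjusted p 0.0797), Sesn2 at -0.16 (0.802), Deptor at -0.30 (0.427), Pdcd4 at 0.10 (0.775) and Atf5 at 0.20 (0.462), while Mtor turned to 0.14 (0.611).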

How the data were processed

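RNA of 12 kidney cortices was hybridised to 1 single-colour (Cy3) array each. Per the file headers, processed signals and the other signals are linear intensities from Agilent Feature Extraction 9.1.3.1, with the local background subtracted. The authors' deposited value table is a linear ratio: the processed signal, floored at 5, over 1 constant per array (58.91 to 68.47); all 40749 single-spot probes fell within 0.1% of this, and column medians were 1.003 to 1.005. The flag columns (well above background, saturated, outlier) are deposited scores of 0 or 1.

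Spots of a probe were averaged without outlier flags, log2 was taken and the 75th percentile over probes was subtracted per array. Each gene was represented by its brightest probe over all arrays. A gene was tested where a whole group of 3 arrays was well above background, with limma 3.58.1 in R 4.3.3 on all 12 arrays (8 residual degrees of freedom, two-sided, 3 animals a group; 5 with slide as a block). The fit was tested on simulated data. Of 41012 probes, 10735 were named by accession, 5571 by symbol and 3729 by an older symbol; 20977 stayed under the file's name. The number of arrays limits the precision.

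Members, roles, lists and tests were chosen with earlier results of these data known. Named were every kinase and binding protein, the 8 called members with the largest rise and the largest falls at 600 mg/kg, the 3 with the largest change in each other comparison, members whose probes differ in sign or call, the 2 called genes with the largest rise and the 2 with the largest fall per related list, and Ppp1r15a, Atf4, Ddit4, Eef1a1, Eef2, Eef2k and Pdcd4 (Mknk2 was not analysed here). Other members and genes, and the 2 ratios, were named after their values were seen. Replicate numbers were not used to pair the animals in the reported fit.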

Additional observations from a re-analysis of the deposited data

How the results depend on the processing

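Each count was recomputed under 23 alternatives, of which 1, the 75th percentile taken over spots, was chosen after seeing the data (18 members higher and 3 lower at 600 mg/kg). At 600 mg/kg the 21 members called higher became 13 without the filter on dim probes and 0 with slide as a block, and 12 to 23 with 1 array left out. The 3 called lower became 1 with the authors' deposited table, 1 without the filter, 0 with the slide block and 1 to 3 with 1 array left out. At 300 mg/kg the 5 called higher became 2 with quantile normalization, 0 without the filter, 0 with only the compared groups' arrays, 0 with the slide block, 3 with scan day as a block and 0 to 4 with 1 array left out. The 0 called lower became 1 with the mean of a gene's probes, 1 with scan day as a block and 0 to 1 with 1 array left out. The 10 calls between 300 and 600 mg/kg became 17 with quantile normalization, 3 without the filter, 0 with only the compared arrays, 1 with the slide block and 2 to 8 with 1 array left out. Signs turned for Eif3a (-0.30) and Eif4g1 (-0.05) with the mean of probes, and, among genes not called, for Eif2ak1 (0.03), Eif2ak4 (0.16), Eif2b5 (0.04), Eif3a (-0.00), Eif4g2 (0.02), Eif4h (0.03) and Ago1 (-0.23) with the slide block, and for Eif2ak4 with the authors' table (0.01). With 1 array left out, Eif2ak4 ran from -0.04 to 0.00 and Eif2ak3 from -0.18 to 0.02.

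Of 18 pairs of same-numbered animals, deviations correlated at -0.225 to 0.116 and 1 pair was over 0.1. The 36 other pairs ran from -0.242 to 0.279. With 3 animals a group, these values cannot show whether a number marks a shared litter or day. With the replicate block, 18 members were called higher and 2 lower at 600 mg/kg, 3 higher at 300 mg/kg and 6 in either direction between 300 and 600 mg/kg. Of all calls at 600 mg/kg, 51.7% were higher in the reported fit and 65.1% with the slide block.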

Other observations

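3 further genes of the initiation machinery carried provisional names in the array files and so fell outside the naming rule; they were found through older symbols after the data were seen. Eif1ax, the X-linked gene for the scanning factor eIF1A, rose by 0.54 ± 0.07 at 600 mg/kg (adjusted p 0.000457 by limma, a rise of 45.7%) and by 0.36 from 300 to 600 mg/kg (adjusted p 0.00632). That exceeds the change of any of the 45 tested members; with slide as a block it was 0.39 ± 0.16 (adjusted p 0.215). Eif3m, for an eIF3 subunit, changed by 0.12 ± 0.04 at 600 mg/kg (adjusted p 0.0385). Eif4enif1, for the protein that carries eIF4E into the nucleus, changed by -0.14 ± 0.04 (adjusted p 0.0162) and was also called lower at 300 mg/kg (-0.15, adjusted p 0.0344).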
